A study of Homo sapiens with 6 samples.

Results

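The suppressors of cytokine signalling SOCS1 to SOCS7, their relative CISH and the protein tyrosine phosphatases PTPN1 and PTPN2 switch off signalling by cytokine receptors. These 10 genes were followed in HT1080 cells after IFNβ treatment. They were chosen by name, through the Ensembl IDs of the expression table, and are 10 of the 62710 genes in it. HT1080 is an established human fibrosarcoma line. The 6 libraries were 3 from untreated cells and 3 from cells given 20 ng/mL IFNβ for 24 h, a type I interferon. Earlier times were not sampled, so changes that had passed by 24 h would be missed. The labels and the cell treatment methods name human IFNβ for this line, while the RNA sequencing methods name the mouse protein. No other agent or genetic change separates the groups. The values are FPKM, that is fragment numbers normalised for gene length and library size. Levels of different genes are set side by side below, with the limit that the gene lengths used are not given. The study describes its cell culture results as a whole as coming from independent biological replicates, without saying how the 3 libraries of a group were cultured. The p-values measure the spread between these libraries, which may be technical in part.

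Type I interferon binds a receptor made of IFNAR1 and IFNAR2, to which the kinases TYK2 and JAK1 are bound. The kinases phosphorylate STAT proteins, among them STAT2, which join IRF9 and bind the interferon-stimulated response element (ISRE) of target genes. SOCS proteins act as negative feedback, since several of them are themselves transcribed in response to STAT proteins. Each has an SH2 domain that binds phosphotyrosine and a SOCS box that recruits elongins and a cullin ubiquitin ligase. SOCS1 and SOCS3 also carry a short region that blocks the catalytic site of JAK kinases. PTPN1 (PTP1B) and PTPN2 (TC-PTP) are phosphatases that remove phosphate from JAK kinases, and PTPN2 also from STAT proteins.

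Markers of the line and of other cell types were looked at first. The summed FPKM of the mesenchymal markers lay between 1320 and 1420 in all 6 libraries, whereas the epithelial markers summed to 0.256 to 0.464 in untreated and 0.626 to 0.661 in IFNβ-treated libraries. Of the 7 epithelial markers only CLDN4 passed the filter of 0.1 FPKM, and it made up most of this sum. The leukocyte markers, of which 2 of 8 passed the filter, summed to 1.18 to 1.32 FPKM, most of it CSF1R, and PTPRC, the pan-leukocyte marker, had a mean of 0.000945 FPKM in untreated and 0.0083 FPKM in IFNβ-treated cells. The endothelial markers, with 2 of 5 above the filter, summed to 0.614 to 0.73 FPKM in untreated and 0.742 to 0.885 FPKM in treated libraries. The part of other cell types in the results was not tested. The libraries held 22848104 to 32915500 fragments each, and within a group they differed by more than counting error alone.

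SOCS1 rose after IFNβ treatment, SOCS5 rose by less, and SOCS6, SOCS7 and PTPN2 fell slightly. SOCS2, SOCS3, SOCS4 and PTPN1 did not pass the test, and CISH was barely transcribed in either group. Levels were compared with limma on log2(FPKM + 0.1) among the 20716 genes with a mean of at least 0.1 FPKM, and the fold changes below are on that scale, which understates the change of low genes. DEGs needed an adjusted p-value under 0.05 together with a log2 fold change of at least 1 in either direction. Of the 10 genes, 9 passed the filter on low values and 1, SOCS1, was a DEG (11.1% of those tested), against 4.22% of all genes tested (3.49% higher and 0.739% lower). An adjusted p-value under 0.05 alone was reached by 5 of the 9 (55.6%), against 32.7% of all genes tested. These were 2 higher genes, where 15.2% of all genes tested were higher, and 3 lower genes, where 17.5% were lower. The untreated and IFNβ-treated libraries did not overlap for 7 of the 9 genes (77.8%), 3 higher and 4 lower, against 46.6% of all genes tested. The median log2 fold change of the 9 genes was -0.071, beside 0.000 over all genes tested. In bulk RNA, a change in the number of responding cells and a change in RNA per cell cannot be told apart.

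**Figure D1:**
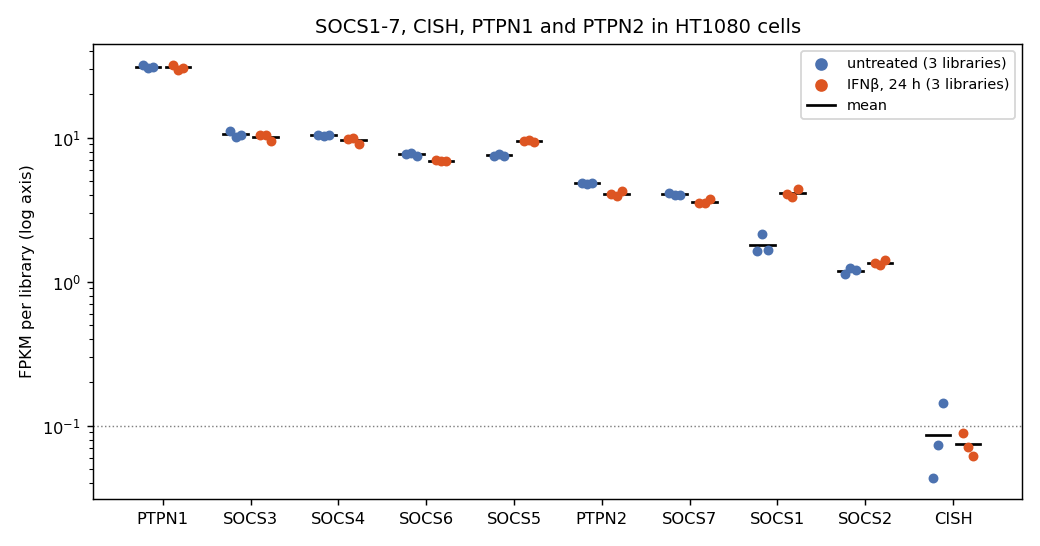
FPKM (log scale) of the 10 genes in each of the 3 untreated and 3 IFNβ-treated HT1080 libraries, with points for libraries, bars for group means and a dotted line at the filter of 0.1 FPKM. SOCS1 moves from 1.64 to 2.13 FPKM up to 3.87 to 4.39 FPKM, whereas CISH stays at or below 0.144 FPKM in every library.

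SOCS1 (ENSG00000185338), the member of the family best known as a brake on interferon signalling, lies on chr16:11254405-11256200 of GRCh38, on the minus strand. Its levels were 1.64, 2.13 and 1.65 FPKM in the untreated libraries and 4.07, 3.87 and 4.39 FPKM in the IFNβ-treated libraries. The lowest treated library was thus above the highest untreated library, and the mean went from 1.81 ± 0.281 to 4.11 ± 0.263 FPKM (SD, n = 3), a ratio of 2.28. The log2 fold change was 1.15 with a standard error of 0.11 and a 95% confidence interval of 0.88 to 1.42 (limma adjusted p = 0.00049). Of all genes tested, 4.39% had a larger log2 fold change. With a pseudocount of 1 in place of 0.1 the log2 fold change was 0.87, under the threshold for a DEG. SOCS1 is also among the ferroptosis-related genes that the study selected on these same libraries, which is not independent evidence of its direction.

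The SOCS1 values rested on few fragments. The untreated libraries held 67, 113 and 97 fragments of SOCS1 and the treated libraries 224, 173 and 227. Counting error alone was 9.41% to 12.2% in the untreated libraries and 6.64% to 7.6% in the treated libraries. The untreated libraries had a coefficient of variation of 15.5%, where counting error would give 10.7%. The difference between the groups exceeded both.

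The promoter windows of SOCS1 and CISH are printed because letters of the motifs searched for occurred in them. Whether these letters are bound or act in HT1080 cells was not tested. Both were taken from RefSeq (GRCh38.p14), run from 250 bases before to 50 bases after the annotated start and are written in the direction of the gene. The motifs were searched on both strands, namely the core of the ISRE (GAAA, any 2 bases, then GAAA), the STAT site with a spacer of 3 bases known as GAS (TTCNNNGAA), and the same site with a spacer of 4 bases. Capitals mark the matches. The SOCS1 window is chr16:11256155-11256454 (minus strand) and the CISH window is chr3:50611725-50612024 (minus strand).
SOCS1 promoter: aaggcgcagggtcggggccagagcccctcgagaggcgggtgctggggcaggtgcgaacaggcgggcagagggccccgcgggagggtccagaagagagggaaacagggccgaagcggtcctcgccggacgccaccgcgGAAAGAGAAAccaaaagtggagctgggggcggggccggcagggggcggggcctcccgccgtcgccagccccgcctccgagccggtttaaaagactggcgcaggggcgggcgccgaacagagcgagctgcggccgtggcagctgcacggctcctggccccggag
CISH promoter: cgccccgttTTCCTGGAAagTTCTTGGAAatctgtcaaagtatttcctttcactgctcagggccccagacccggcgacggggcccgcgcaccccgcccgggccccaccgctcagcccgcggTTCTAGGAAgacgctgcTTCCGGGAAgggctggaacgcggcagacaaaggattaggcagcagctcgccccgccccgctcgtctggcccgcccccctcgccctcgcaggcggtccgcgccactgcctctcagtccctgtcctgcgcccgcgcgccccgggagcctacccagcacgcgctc

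The SOCS1 window held 1 ISRE core, GAAAGAGAAA, at positions -113 to -104 from the start. It held no GAS and no site with the longer spacer. The CISH window held 4 GAS matches and no ISRE core. They were TTCCTGGAA and TTCTTGGAA, whose first bases lie at positions -241 and -230, and TTCTAGGAA and TTCCGGGAA, at -129 and -112. Among all 34943 promoter windows of the same length, 3.57% held the ISRE core, 7.66% held GAS and 6.46% held the site with the longer spacer. RefSeq windows were found for 7 of the 10 genes, with a pair of windows for SOCS3, and SOCS2, SOCS5 and SOCS7 had none. In the windows of SOCS3, SOCS4, SOCS6, PTPN1 and PTPN2 these letters did not occur, which says nothing about binding elsewhere. The SOCS3 and PTPN2 windows do not cover the gene starts of GENCODE 29. The SOCS3 windows have their starts at -848 and 410 bases from it, and the PTPN2 window lies 88681 bases inside the gene, so the annotated starts of these genes were not searched.

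SOCS3 (ENSG00000184557, chr17:78356778-78360077), the other JAK-blocking SOCS protein and a textbook target of STAT3, did not pass the test. It had 11.2, 10.1 and 10.5 FPKM in untreated libraries and 10.4, 10.4 and 9.48 FPKM after IFNβ, and the groups overlapped. The mean was 10.6 ± 0.553 against 10.1 ± 0.539 FPKM (SD, n = 3). The log2 fold change of -0.07 (SE 0.05, limma adjusted p = 0.38) had a 95% confidence interval of -0.20 to 0.06, or 0.87 to 1.04 as a fold. At 24 h, the only treated time sampled, a rise of the size seen for SOCS1 lies outside this interval. SOCS3 rested on 700 to 949 fragments per library. SOCS3 was nonetheless the more abundant transcript of the pair in every library. The SOCS1 level relative to SOCS3 was -2.50 ± 0.27 on the log2 scale in untreated and -1.28 ± 0.16 in treated libraries (SD, n = 3), a difference of 1.22. An exact two-sided permutation test gave p = 0.10, the smallest that 3 against 3 libraries allow, or 0.17 after adjustment over the 5 pairs of related genes compared.

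CISH and SOCS2 are textbook targets of STAT5 and restrain growth hormone and cytokine receptors. CISH (ENSG00000114737, chr3:50606490-50611831) was the lowest of the 10 genes. It had 0.0433, 0.0733 and 0.144 FPKM in untreated and 0.0899, 0.0713 and 0.0616 FPKM in treated libraries, with the treated values inside the untreated range. These values stand for 5, 11 and 24 fragments in untreated and 14, 9 and 9 fragments in treated libraries. Its mean of 0.0806 FPKM over the 6 libraries was under the filter of the test. The ratio of the summed fragments, per library size, was 0.807, with a 95% interval of 0.491 to 1.32 that covers counting error only. A change within these bounds was not detectable at this depth. On the opposite strand, MAPKAPK3 shares 218 bases, 4.26% of the CISH exons. It was far more abundant and fell from 31.9 ± 0.82 to 19.6 ± 0.59 FPKM (SD, n = 3; log2 fold change -0.70, SE 0.03, limma adjusted p = 1.8e-05). Whether the counting used strand is not stated, so reads of MAPKAPK3 and CISH in the shared bases cannot be told apart.

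SOCS2 (ENSG00000120833, chr12:93569814-93583487) had 1.14, 1.24 and 1.2 FPKM in untreated and 1.34, 1.31 and 1.42 FPKM in treated libraries. Every treated library was above every untreated library, but by little. The log2 fold change was 0.17 with a standard error of 0.08 and a 95% confidence interval of -0.01 to 0.36, and it did not pass the test (limma adjusted p = 0.15). The CISH level relative to SOCS2 differed between the groups by -0.24 on the log2 scale (exact two-sided permutation p = 0.50, adjusted 0.62). This value hung on single libraries, being -0.037 without untreated replicate 3 and -0.38 without untreated replicate 1, and it was -0.12 with a pseudocount of 1. SOCS2 shares 277 bases (4.09% of its exons) with SOCS2-AS1, which had a mean of 0.0428 FPKM in untreated and 0.0599 FPKM in treated cells.

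SOCS4 and SOCS5 form a pair with long N-terminal regions and are known for acting on the epidermal growth factor receptor. SOCS5 (ENSG00000171150, chr2:46698952-46780245) had 7.4, 7.7 and 7.46 FPKM in untreated and 9.49, 9.6 and 9.33 FPKM in treated libraries. The groups were far apart compared with the spread within them, at 7.52 ± 0.159 and 9.47 ± 0.133 FPKM (SD, n = 3), a ratio of 1.26. The log2 fold change was 0.33 with a standard error of 0.03 and a 95% confidence interval of 0.26 to 0.40 (limma adjusted p = 0.00031). SOCS5 thus passed the test with a lower adjusted p-value than SOCS1 while changing by much less, on 1267 to 2188 fragments per library. SOCS4 (ENSG00000180008, chr14:55027230-55049488) lay at 10.5, 10.3 and 10.4 FPKM in untreated and 9.74, 9.9 and 9.08 FPKM in treated libraries. All treated libraries were lower, yet the log2 fold change of -0.12 (SE 0.04) did not pass the test at a limma adjusted p of 0.054. The SOCS4 level relative to SOCS5 went from 0.46 ± 0.04 to 0.01 ± 0.05 on the log2 scale, a difference of -0.45 (exact two-sided permutation p = 0.10, adjusted 0.17). The pair therefore ended at nearly equal levels after treatment.

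SOCS6 and SOCS7 are the pair linked to insulin and receptor tyrosine kinase signalling. SOCS6 (ENSG00000170677, chr18:70288901-70330200) had 7.71, 7.84 and 7.5 FPKM in untreated and 6.95, 6.9 and 6.92 FPKM in treated libraries. All treated libraries were lower, and the log2 fold change was -0.15 with a standard error of 0.03 (limma adjusted p = 0.0095). SOCS7 (ENSG00000274211, chr17:38352228-38405593) had 4.12, 3.98 and 4.02 FPKM in untreated and 3.51, 3.51 and 3.75 FPKM in treated libraries. It too was lower in each treated library, with a log2 fold change of -0.17 and a standard error of 0.04 (limma adjusted p = 0.031). The SOCS7 call was weak. Its limma adjusted p was 0.052 after rescaling to equal FPKM totals, 0.07 with the replicate number as a block, and 0.088, 0.062 and 0.077 without untreated replicates 1, 2 and 3. It was 0.092 and 0.094 without IFNβ replicates 1 and 2, and remained under the threshold without IFNβ replicate 3 (0.028). SOCS6 relative to SOCS7 differed by 0.02 on the log2 scale between the groups (exact two-sided permutation p = 0.90, adjusted 0.9).

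Of the 2 phosphatases, PTPN2 fell and PTPN1 did not pass the test. PTPN1 (ENSG00000196396, chr20:50510321-50585241) was the most abundant of the 10 genes, at 32.1, 30.3 and 30.7 FPKM in untreated and 31.8, 29.7 and 30.6 FPKM in treated libraries. The groups overlapped almost fully, with means of 31 ± 0.971 and 30.7 ± 1.04 FPKM (SD, n = 3). The log2 fold change was -0.02 with a 95% confidence interval of -0.10 to 0.07 (SE 0.03, limma adjusted p = 0.76), on 2968 to 4079 fragments per library. PTPN2 (ENSG00000175354, chr18:12785478-12929643) had 4.81, 4.77 and 4.87 FPKM in untreated and 4.08, 3.93 and 4.23 FPKM in treated libraries. It was lower in every treated library, at a ratio of 0.847. The log2 fold change was -0.24 with a standard error of 0.04 and a 95% confidence interval of -0.33 to -0.14 (limma adjusted p = 0.0052). The level of PTPN1 relative to PTPN2 was 2.66 in untreated and 2.88 in treated cells on the log2 scale, a difference of 0.22 at p = 0.10 in the exact two-sided permutation test (adjusted 0.17).

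**Figure D2:**
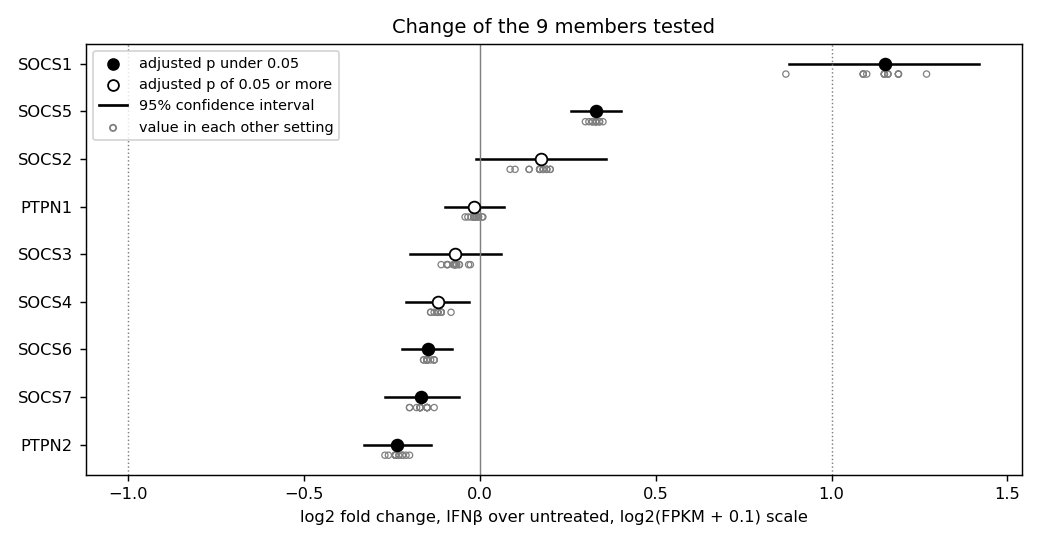
Log2 fold change (IFNβ-treated against untreated, log2(FPKM + 0.1) scale) of the 9 genes tested, with 95% confidence intervals from limma, filled points for an adjusted p under 0.05, small open circles for the alternative settings and dotted lines at the DEG threshold. SOCS1 at 1.15 is the only main point beyond the dotted lines, with 1 alternative at 0.87, SOCS5 follows at 0.33, and the other 7 lie between -0.24 and 0.17.

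In order of level, untreated cells had PTPN1 first, then SOCS3 and SOCS4, whose ranges overlapped, then SOCS6 and SOCS5, whose ranges overlapped too, and then PTPN2, SOCS7, SOCS1, SOCS2 and CISH. The range of each of the last 5 did not overlap that of its neighbours. After IFNβ, SOCS5 moved above SOCS6 with no overlap, and SOCS1 went from rank 8 to rank 6. The treated range of SOCS1, 3.87 to 4.39 FPKM, was above that of SOCS7 and overlapped that of PTPN2. SOCS3 and SOCS4 still overlapped.

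The summed level of the family was close in both groups, while the shares of its genes lay apart. The 8 SOCS and CISH genes summed to 43.8, 43.4 and 42.9 FPKM in untreated and 45.6, 45.6 and 44.4 FPKM in treated libraries. The treated libraries were all higher, by 1.86 FPKM on average (exact two-sided permutation p = 0.10, the smallest the design allows). With quantile normalization the difference was 1.05 FPKM. SOCS1 made up 3.75%, 4.91% and 3.84% of the sum in untreated libraries and 8.92%, 8.5% and 9.89% in treated libraries. SOCS5 went from 17.4% ± 0.417 to 21% ± 0.132 of the sum (SD, n = 3). The shares of SOCS3 (24.5% ± 1.16 to 22.3% ± 0.872) and SOCS4 (24% ± 0.184 to 21.2% ± 0.658) were lower in treated cells. Shares of a sum are tied to each other, so that a rise of SOCS1 and SOCS5 lowers the share of the others. The group ranges of these tied shares were apart for each gene of the family but CISH. This included SOCS3, whose own FPKM overlapped between the groups.

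**Figure D3:**
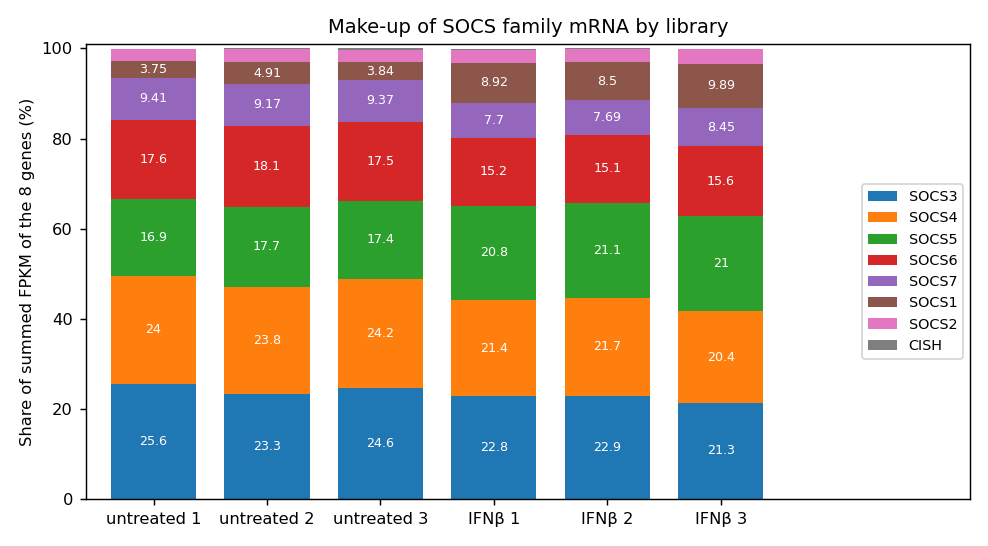
Share (%) of the summed FPKM of SOCS1 to SOCS7 and CISH held by each gene, stacked for each of the 6 libraries. The share of SOCS1 grows from 4.17% to 9.1% on average and that of SOCS5 from 17.4% to 21%, while SOCS3 and SOCS4 remain the largest on average.

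The genes that SOCS proteins act on, and those they work with, were described from fixed lists. The counts below stand beside 15.2% of all genes tested that passed the test upward, 17.5% that passed it downward and 4.22% that were DEGs, and with so few genes a list they are given as descriptions. None of the 12 receptors and JAK kinases tested was a DEG, while 5 passed the test upward and 2 downward. The kinases bound to the interferon receptor rose in part, JAK1 from 12.3 ± 0.327 to 16.1 ± 0.275 FPKM (SD, n = 3; log2 fold change 0.38, limma adjusted p = 0.00016) and TYK2 by 0.16 on the log2 scale (limma adjusted p = 0.0039). IFNAR1, a chain of the receptor, fell by 0.20 on the log2 scale (limma adjusted p = 0.016). The changes in the list ran from GHR, the growth hormone receptor, at -0.32 to JAK2 at 0.47. IFNAR2 was listed at 0.193 FPKM in untreated and 0.265 FPKM in treated cells, but 83.2% of its exon bases are shared with other genes, so its level is uncertain. Of 7 STAT and IRF genes tested, 5 passed the test upward and 1 downward, and 3 were DEGs, all higher. STAT2 rose by 3.35 on the log2 scale (limma adjusted p = 8.5e-09), from 3.77, 3.94 and 3.92 FPKM to 41.2, 39.7 and 40.8 FPKM. The other DEGs were IRF9 (2.79, with 48.4% of its exon bases shared with another gene) and IRF1 (1.21). STAT3, the regulator named above for SOCS3, rose by 0.68 on the log2 scale (limma adjusted p = 9.1e-05). STAT5B, which acts on CISH and SOCS2, was the lowest of the list at -0.16 (limma adjusted p = 0.028).

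Among 11 other inhibitors of the pathway that were tested, 1 passed the test upward and 3 downward, and 1 was a DEG. This was USP18, which holds off JAK1 at IFNAR2, and it went from 0.866, 0.56 and 0.653 FPKM to 65.8, 65.2 and 64.4 FPKM (log2 fold change 6.38, SE 0.13, limma adjusted p = 5.2e-07). The list also held PTPN11 (SHP-2), its lowest gene at -0.63 on the log2 scale, and PIAS2 (-0.26) and CBL (-0.14), which fell as well. None of the 9 partners of the SOCS box was a DEG, with 1 passing the test upward and 3 downward. RBX1 was the highest at 0.26 (limma adjusted p = 0.0036). ELOB, the elongin that the SOCS box binds with elongin C, was the lowest at -0.27 (limma adjusted p = 0.0083). Of the ELOB exon bases, 16.8% are shared with another gene. RNF7, the RING partner of the cullin CUL5, also fell, by 0.14 on the log2 scale. Among 11 other non-receptor phosphatases tested, of which PTPN11 is also in the list of inhibitors, none was a DEG, 1 passed the test upward (PTPN23, 0.13) and 5 downward, the lowest being PTPN22 (-0.83). Of 14 STAT3 and STAT5 targets, 6 passed the test upward and 2 downward, and 1 was a DEG, CEBPD, a transcription factor, which rose from 7.5 ± 1.02 to 17.2 ± 0.871 FPKM (SD, n = 3; log2 fold change 1.20, limma adjusted p = 0.00028). PIM1, a kinase gene induced by STAT5 and STAT3, had a log2 fold change of -0.03 (limma adjusted p = 0.72), and IL4R was the lowest at -0.34. The medians of these lists ran from -0.12 for the phosphatases to 0.68 for the STAT and IRF genes, beside 0.000 over all genes tested.

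**Figure D4:**
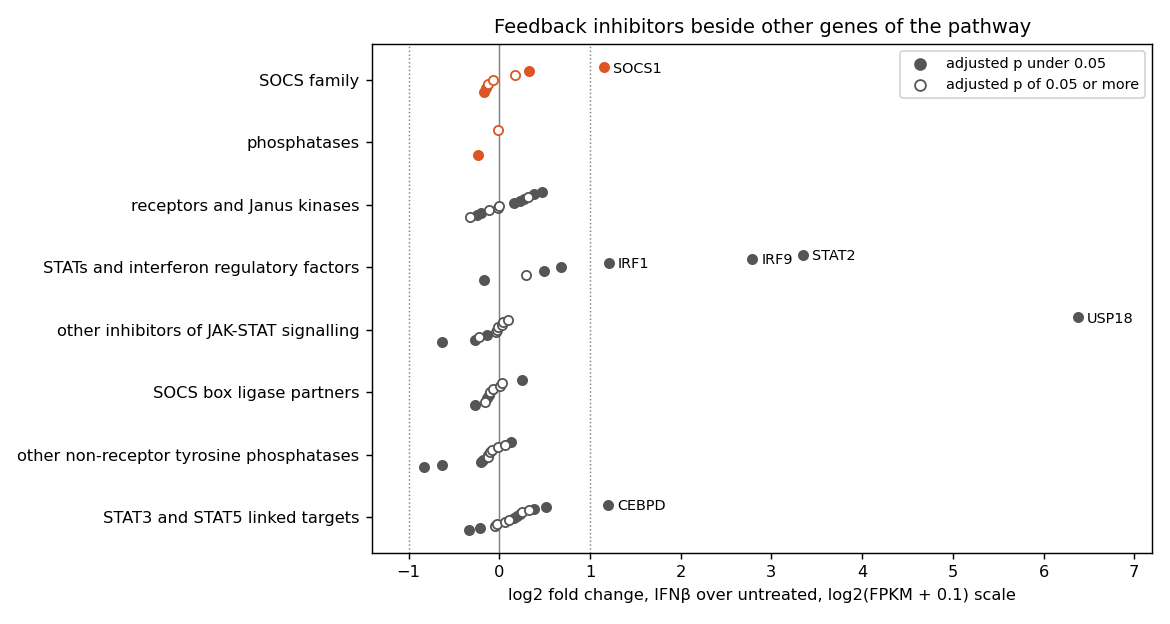
Log2 fold change (IFNβ-treated against untreated) of each tested gene in the SOCS family, PTPN1 and PTPN2, and the lists of receptors and JAK kinases, STAT and IRF genes, other inhibitors, SOCS box partners, other phosphatases and STAT targets, with filled points for an adjusted p under 0.05 and dotted lines at the DEG threshold. STAT2 (3.35), IRF9 (2.79) and USP18 (6.38) lie far above SOCS1 (1.15), and the SOCS box partners lie between -0.27 and 0.26.

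Levels of other pathway genes were also set against that of SOCS1, as ratios chosen after their values were seen. The ratio of USP18 to SOCS1 mRNA went from 0.263 to 0.528 up to 14.7 to 16.8. The untreated libraries held 81, 68 and 88 fragments of USP18 beside 67, 113 and 97 of SOCS1. As the gene lengths used are not given, which mRNA was the rarer in each untreated library is uncertain. The JAK1 ratio was lower after treatment, at 5.7 to 7.75 against 3.7 to 4.19, and that of TYK2 went from 4.75 to 6.32 down to 2.6 to 2.9. IFNAR1 per SOCS1 went from 2.54 to 3.61 down to 1.1 to 1.26. None of these ranges overlapped between groups. Each ratio is divided by SOCS1, whose own levels did not overlap between groups, so the ratios are not separate results. JAK1 and TYK2 themselves rose, and their lower ratios restate the larger rise of SOCS1. How many of all genes would differ likewise relative to SOCS1 was not counted.

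The genes whose values over the 6 libraries were most like those of SOCS1 were IRF1, RNF122 and RNF19B. Likeness was the root mean square difference of log2(FPKM + 0.1) after centring each gene, over 11287 genes with a mean of at least 1 FPKM, and it was 0.075, 0.076 and 0.087. IRF1, a transcription factor, went from 1.84 ± 0.25 to 4.37 ± 0.052 FPKM (SD, n = 3), though 22% of its exon bases are shared with other genes. RNF122 and RNF19B, both RING finger ubiquitin ligases, had log2 fold changes of 1.20 and 1.18.

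RMI2, a gene of the complex that dissolves recombination intermediates, spans SOCS1 on the opposite strand without sharing exon bases. It rose from 3.21 ± 0.13 to 5.23 ± 0.29 FPKM (SD, n = 3; log2 fold change 0.68, SE 0.06, limma adjusted p = 0.00024). Its part in the SOCS1 values was not tested. Shared exon bases were few for SOCS5 (2.11%, with LINC01118) and PTPN1 (3.41%, with AL133230.1), and SOCS3, SOCS4, SOCS6, SOCS7 and PTPN2 shared none in GENCODE 29.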

How the data were processed

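RNA of 6 HT1080 libraries was analysed as deposited FPKM, which the authors made per Ensembl ID without pooling libraries. The submitters' processing notes name fastp, HISAT2, StringTie and GRCh38. The annotation release, gene lengths and strand setting are not given in the sources used here. Of the 62710 IDs, 42303 had a symbol and 4436 were not in GENCODE 29, from which locations and shared exon bases were taken. For IFNAR2, IRF9, IRF1 and ELOB, fragments and FPKM imply longer gene models than those of GENCODE 29. Their shared percentages may therefore differ from those in the models counted. Fragments per gene were recovered as whole numbers (relative tolerance 1e-09) for 100.00% of the 35303 genes above 0, and reached 99.25% to 99.29% of each library's number. For a gene of 1 kb, 1 fragment is 0.0304 to 0.0438 FPKM.

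Groups were compared with limma 3.58.1 (R 4.3.3, lmFit and eBayes with trend, no covariate, Benjamini-Hochberg adjustment) on log2(FPKM + 0.1), where the mean over the 6 libraries reached 0.1 FPKM. The fit was tested on simulated data, where changed genes of low FPKM were recovered less often and false calls were on genes with few fragments. Pairs and sums were compared with exact permutation tests in Python 3.11.15 (pandas 2.3.3, numpy 2.4.6, scipy 1.17.1). The alternatives were other pseudocounts, filters, scalings and a stricter threshold, eBayes without trend, a replicate block, limma-voom on recovered fragments, and each library left out. A gene of the STAT list is not reported here. The genes and lists were chosen with earlier results of these data known. Of the pathway lists, the text names DEGs, the highest and lowest gene of each list, and the core receptor, kinase and STAT genes, with further genes that passed the test. For SOCS1, the 3 most similar genes and RMI2, which spans it, are named. For each member the genes sharing exon bases with it are named. Genes lying within PTPN1 or PTPN2 without shared exon bases are not. PTPN6, CSF1R, PIM1, the genes of the ratios and others outside the rule were chosen after their values were seen. Same-numbered libraries correlated at 0.014, 0.0228 and 0.0307 in their deviations from the group means, so the numbers were not taken as pairs.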

Additional observations from a re-analysis of the deposited data

How the results depend on the processing

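Over 16 alternatives SOCS1 had log2 fold changes of 0.87 to 1.27, with a highest limma adjusted p of 0.0051, and the number of the 10 genes with an adjusted p under 0.05 was 4 to 6. With a pseudocount of 1, 0 of the 10 genes were DEGs, as SOCS1 stood at 0.87. DEGs among all genes were 304 with that pseudocount and 425 with the filter at 1 FPKM, against 875, and 809 to 867 when a library was left out. Of all DEGs 82.5% were higher, 73.4% with quantile normalization and 91.4% with a pseudocount of 1. Over the scalings, the median over all genes lay between -0.060 and 0.012. SOCS4 passed the test with the filter at 1 FPKM (limma adjusted p = 0.035), quantile normalization (0.027) and limma-voom (0.016).

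PTPN1 ran from -0.042 to 0.0086 when a library was left out, and changed sign to 0.0086 without untreated replicate 1 and 0.0063 without IFNβ replicate 2. The SOCS6 minus SOCS7 difference ran from -0.00016 to 0.05 when a library was left out. The cause was not tested. With the replicate number as a block, 4 of the 10 genes had an adjusted p under 0.05, SOCS7 being lost at 0.07, and 829 genes were DEGs. Same-numbered libraries correlated at 0.014, 0.0228 and 0.0307 and other pairings at 0.0058 or less, values too small to take the numbers as pairs. The lowest genes are limited by depth, CISH with 5 to 24 fragments per library.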

Other observations

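PTPN22, a phosphatase best known from lymphocytes, was transcribed in this fibrosarcoma line at 6.37, 5.88 and 6.89 FPKM in untreated and 3.42, 3.64 and 3.56 FPKM in IFNβ-treated libraries, on 409 to 1020 fragments each. The groups did not overlap, and the log2 fold change was -0.83 with a 95% confidence interval of -0.98 to -0.68 (SE 0.06, limma adjusted p = 0.00018). It exceeded that of PTPN2 in size. PTPRC, another lymphocyte phosphatase, had a mean of 0.000945 FPKM in untreated and 0.0083 FPKM in treated cells. CSF1R, also among the leukocyte markers, had 1.05 FPKM in untreated and 1.01 FPKM in treated cells. The part of other cell types in the PTPN22 values was not tested. PTPN22 shares 2.33% of its exon bases with another gene.

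PTPN11, which encodes SHP-2, had 33.7, 33.4 and 33.7 FPKM in untreated and 22.2, 21.2 and 21.8 FPKM in treated libraries. Its log2 fold change of -0.63 (SE 0.02, limma adjusted p = 7.3e-06) was under the threshold for a DEG, with groups far apart compared with the spread within them. PTPN6, which encodes SHP-1, was at or below 0.0942 FPKM in every library, on 5 to 14 fragments.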
